A study of Mus musculus with 4 samples.

Results

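The cells described here are those rich in G2 and mitosis transcripts in the vaginal epithelium of mice with intact ovaries. They were chosen by their own counts: a cell belonged when the unique molecular identifiers (UMIs, counted transcript molecules) of Mki67, Top2a, Ube2c, Birc5, Cdk1, Ccnb1, Cenpf, Nusap1, Prc1 and Tpx2 added up to at least 4. Before that, cells with fewer than 200 detected genes or more than 20% mitochondrial UMIs were left out. The rule found 1217 cells among the 4966 kept cells of ovary-intact mice, and these are 1217 of the 8446 kept cells of the whole series. In 315 of 824 and 124 of 393 of them, by library, UMIs of 52 S-phase genes outnumbered those of 44 late mitosis genes. The 10 rule genes are not in the late list and would move this balance, so it does not set the phase of a cell. That every cell is in G2 or mitosis is not shown by its RNA. They are called dividing cells below, and the remaining 3749 cells of the same libraries are called other cells.

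The study used Drop-seq, which captures single cells in droplets and tags each transcript with a cell barcode and a UMI. Vaginal epithelium came from C57BL/6 mice that were either ovary-intact (WT in the labels, with no genetic change named) or surgically ovariectomised (OVX). Each of the 4 libraries (2 WT, 2 OVX) came from a pool of 5 mice, so the spread between animals was not measured. The sources used here do not state age, cycle stage or time since surgery. The labels do not say whether the duplicate libraries of a group were separate pools. The p-values of WT against OVX dividing cells therefore reflect variation among libraries, possibly of technical origin. Where classes of the same library were compared, the library was a block. Those p-values reflect how far the class difference varied between libraries, with a spread shared over genes, and not the variation among the libraries themselves. The count tables held 5845107 and 1934634 UMIs for the WT libraries (3000 and 2000 barcodes) and 991112 and 1684967 UMIs for the OVX libraries (3000 and 2000 barcodes). WT libraries 1 and 2 shared 5 barcodes, none of them among the dividing cells.

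A stratified epithelium such as that of the vagina is renewed by division of keratinocytes in and near the basal layer, and daughter cells that leave it stop dividing, switch keratins and build cornified envelopes. A cycling cell copies its DNA in S phase with replication factors such as PCNA and the MCM helicase. In G2 and mitosis it accumulates cyclins A and B, the kinases CDK1, PLK1 and the Aurora kinases, and the proteins of the spindle, kinetochore and cleavage furrow, many of which are destroyed through the anaphase-promoting complex when the cell divides. In the mouse vagina, division and thickening of the epithelium depend on oestrogen from the ovary.

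WT library 1 gave 824 dividing cells of 2979 kept cells, or 27.7% (95% exact binomial interval 26.1% to 29.3%). WT library 2 gave 393 of 1987, or 19.8% (18.05% to 21.6%). These intervals cover counting error only. The share differed between the libraries together with depth: the median dividing cell held 2078 UMIs in library 1 and 1093 in library 2. Dividing cells were also deeper than the other cells of their own library, whose medians were 1457 and 745 UMIs, and they held more detected genes (medians of 1277 against 909, and 777 against 543). Mitochondrial UMIs made up 3.54% and 3.34% of a median dividing cell and 4.19% and 4.02% of a median other cell.

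The 10 genes that chose the cells were spread over most of them. The median sum was 16 UMIs in library 1 and 9 in library 2, with maxima of 127 and 62. At least 3 of the 10 genes were detected in 781 of the 824 cells (94.8%) and in 381 of the 393 cells (96.9%). Mki67, the marker of cells outside rest, was found in 93.4% and 59.8% of dividing cells, Top2a, the topoisomerase that untangles sister chromatids, in 84.0% and 79.1%, and Ccnb1, cyclin B1, in 33.1% and 31.8%. Membership rested on 1 gene alone in 7 and 2 cells. At the border, 71 and 52 cells held exactly 4 UMIs and were taken, and 92 and 62 cells held 3 and were not. The bulk of other cells lay far from it, with 1363 and 1148 cells at 0. These values describe the choice and are not results.

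The label was checked on 18 G2 and mitosis genes that the rule did not use: Ccna2, Ccnb2, Cdc20, Plk1, Aurka, Aurkb, Cdca3, Cdca8, Cenpa, Cenpe, Kif11, Kif20a, Hmmr, Bub1, Spc24, Spc25, Cks2 and Pbk. Their summed level, in CPM (UMIs of a class of cells scaled to the same total for every class), was 152 in library 1 and 297 in library 2 among cells with none of the 10 rule genes. It was 825 and 1743 in cells just outside the border at 3 UMIs, and 1735 and 3893 in cells just inside at 4. In cells with 10 to 19 rule UMIs it reached 4518 and 5968. The plot of cells by their rule sum shows these levels. In the last class, of 20 or more UMIs, library 1 was higher still at 6417 and library 2 was at 5404. In cells with 1, 2 or 3 rule UMIs, which count as other cells here, the level lay above that at 0 in both libraries.

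**Figure D1:**
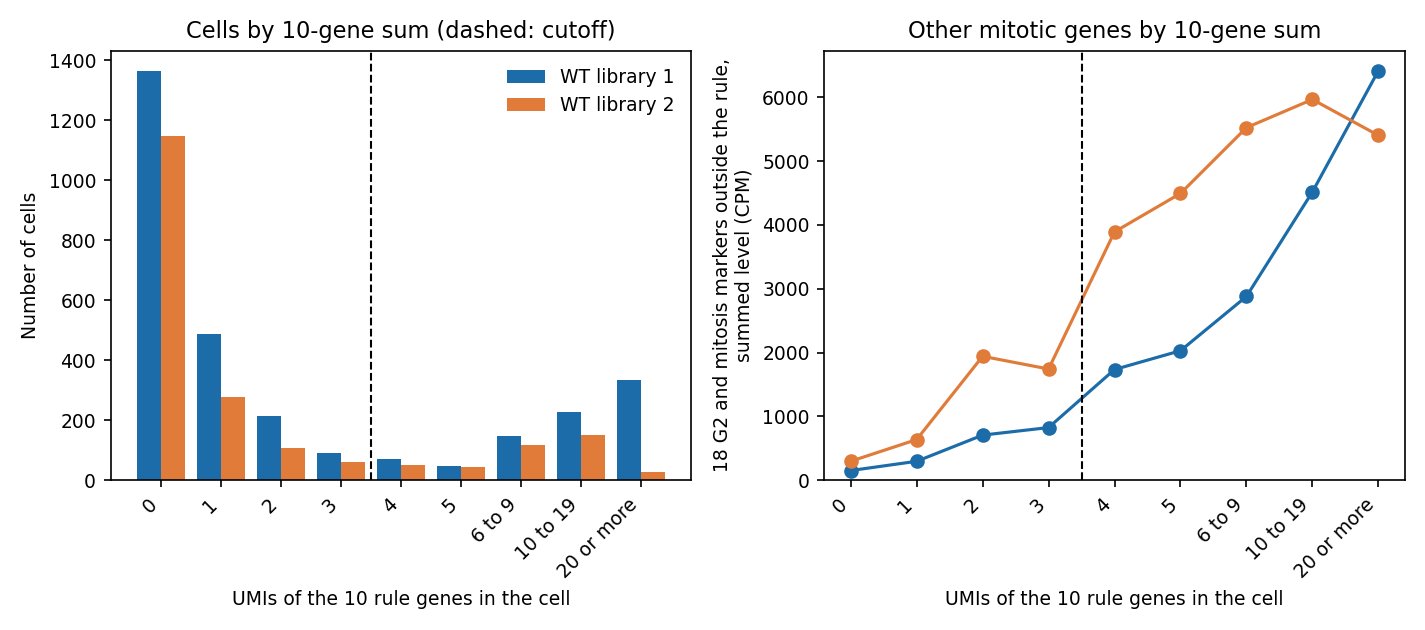
Left, number of cells (y axis) by the UMI sum of the 10 rule genes (x axis) in the 2 WT libraries, with the border between 3 and 4 dashed. Right, summed level in CPM of 18 G2 and mitosis genes outside the rule in the same classes of cells, which rose from 152 and 297 at 0 rule UMIs to 4518 and 5968 at 10 to 19.

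Outside the 10 rule genes, dividing cells stood apart from other cells of the same mice by a large programme of kinases, spindle, kinetochore and chromatin genes, which were higher, and by keratins and other products of differentiation, which were lower. Of 10753 genes tested 1984 differed (18.5%): 1014 were higher in dividing cells (9.43%) and 970 lower (9.02%), at an adjusted p under 0.05. The test was edgeR's quasi-likelihood test on UMIs summed per library and class, with the library as a block, because both classes came from the same mice. The fit had 4 sums and 1 residual degree of freedom, so single p-values lean on a spread shared over genes and are not ranked here. Without the library block no gene passed (0 at adjusted p, 472 at unadjusted p under 0.05), and DESeq2 called 490 genes, 352 of them higher. The tests with 1 WT library left out took their spread from the OVX libraries and called 182 genes without library 1 and 304 without library 2. The median log2 fold change of all genes tested was -0.04, and each list below is read beside it. Because cells were sorted by mitotic UMIs, a gene transcribed together with the 10 rule genes had to be higher, and the counts describe which genes those were.

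Kinases and cyclins of G2 and mitosis came first. Of 26 tested outside the rule, 24 were higher and none lower, with a median log2 fold change of 3.55. Plk1 (chr7:122159439-122169873), the kinase that drives entry into mitosis and the exit from it, stood at 164 and 193 CPM in dividing cells of libraries 1 and 2 and at 3.14 and 11.2 in other cells. The classes did not overlap, and the log2 fold change was 4.92 ± 0.20 (SE of the fit). This SE and those of the fold changes below lean on the spread shared over genes. They do not measure how far the libraries differ from each other. Ccnb2 (chr9:70407692-70421547), cyclin B2, stood at 466 and 342 CPM against 25.1 and 40.6, a log2 fold change of 3.78 ± 0.12. Ccna2, cyclin A2, rose from 7.85 and 18.2 CPM to 158 and 261. The Aurora kinases, which set up the spindle poles (Aurka) and correct chromosome attachment (Aurkb), both rose, Aurka from 2.36 and 8.40 to 65.7 and 151 CPM and Aurkb from 2.88 and 14.7 to 77.6 and 133. In every one of these genes both dividing values lay above both other values. Cdc25c, the phosphatase that switches on CDK1 (78.6 and 43.8 CPM against 2.09 and 5.60), and Nek2, a centrosome kinase (45.3 and 57.8 against 2.09 and 2.80), were among the 15 largest rises of all genes. The members of the list that did not pass were Cdk2 and Stk38.

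The anaphase-promoting complex list had 19 genes, of which 13 were higher and none lower, with a median log2 fold change of 1.05. Its activator Cdc20 (chr4:118432901-118437352) stood at 526 and 309 CPM in dividing cells against 27.2 and 35.7 (log2 fold change 3.88 ± 0.12). Fbxo5, which holds the complex inactive until mitosis, stood at 106 and 149 against 6.02 and 16.8. Mad2l1, of the checkpoint that waits for attached chromosomes, stood at 100 and 191 against 9.42 and 32.2. Pttg1 (securin), Mad2l2 and the subunits Cdc16, Cdc23, Cdc26 and Anapc13 did not pass.

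All 32 kinetochore and centromere genes tested were higher, with a median of 3.001. Cenpa, the histone that marks the centromere, stood at 253 and 432 CPM against 18.3 and 50.4. Cenpe, a kinesin that carries chromosomes to the middle of the spindle, stood at 800 and 335 against 44.5 and 30.1. Nuf2 and Spc25, both parts of the microtubule-binding NDC80 complex, had log2 fold changes of 4.34 ± 0.16 and 4.15 ± 0.13. Bub1, a checkpoint kinase of the kinetochore, stood at 208 and 123 CPM against 12.04 and 11.9.

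Spindle, kinesin and cytokinesis genes were higher in 41 of 42 tested, with none lower and a median of 3.67; the exception was Tuba1a. The largest rise of any gene by the naming rule belonged to Kif14, a kinesin of cytokinesis, at 81.6 and 39.8 CPM against 0.524 and 3.502 (log2 fold change 5.58 ± 0.32). Kif11, which pushes the spindle poles apart, stood at 407 and 249 CPM against 15.4 and 16.8. Kif23 (chr9:61915905-61946774), of the central spindle, stood at 551 and 159 against 22.5 and 11.9. Hmmr (chr11:40701395-40733422), a spindle-assembly protein, stood at 544 and 392.3 against 23.6 and 21.0, and Anln, the scaffold of the cleavage furrow, at 528 and 350 against 29.1 and 26.6. Within dividing cells, Kif14 and Kif23 differed between the WT libraries by more than 2-fold, while for each gene named here both dividing values lay above both values of other cells. Other genes among the 15 largest rises were Kif2c, Mxd3, Prr11, Arhgap19, Neil3 and Fam64a, with log2 fold changes from 4.43 to 4.91.

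Chromatin, condensin and lamina genes were higher in 41 of 43, with a median of 1.31. Smc4, a core subunit of condensin, stood at 1540 and 868 CPM against 266 and 191, and Hmgb2, a chromatin protein, at 500 and 876 against 63.1 and 141. Cell cycle transcription factors were higher in 9 of 16 and lower in none. Foxm1, the factor that drives G2 genes, was scarce, at 15.4 and 17.9 CPM against 1.31 and 1.40, and its call was lost without WT library 1 (log2 fold change 3.48, against 3.47 ± 0.49 with both). E2f8, a repressor of S-phase genes, stood at 67.6 and 47.8 against 6.54 and 5.60.

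**Figure D2:**
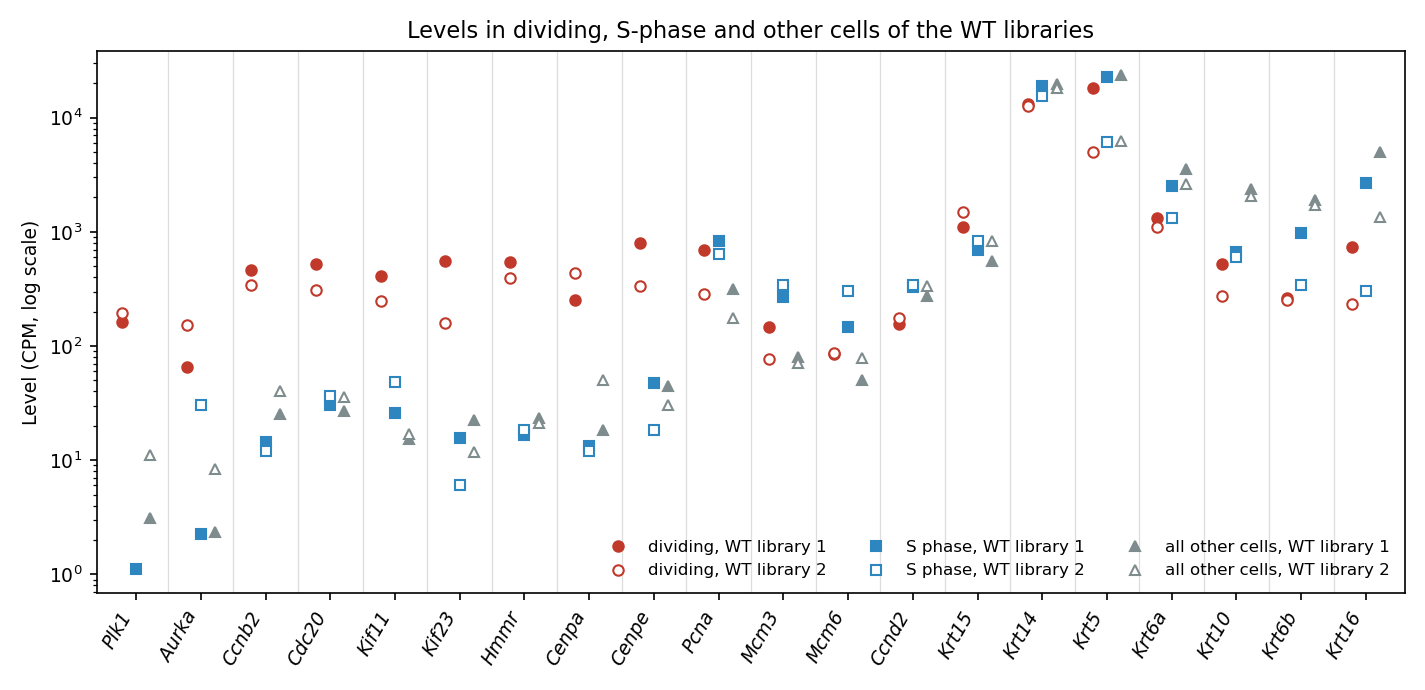
Levels (y axis, CPM on a log scale) of 20 genes (x axis) in dividing cells, in S-phase cells and in all other cells of WT library 1 (filled) and WT library 2 (open); S-phase cells are also part of all other cells, and Plk1 is not drawn for S-phase cells of library 2, where it had no UMI. Dividing cells lie above both classes from Plk1 to Cenpe, and below the other cells for Krt6a, Krt10, Krt6b and Krt16.

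The sequence at the starts of these genes was read next. Windows of 250 bases before to 50 bases after the start came from RefSeq on build GRCm38.p6; 13 of the 18 G2 and mitosis genes outside the rule and 9 of the 10 rule genes had a window. In each window the letters TTTGAA, the cell cycle genes homology region of late cell cycle promoters, and CCAAT, the box bound by NF-Y, were searched on both strands and put in capitals. The motifs can share a letter at their ends, and do not overlap in the windows shown here. TTTGAA was found in 10 of the 13 windows (76.9%) and CCAAT in 13 of the 13, and all 10 windows with TTTGAA held both. Among all 32851 windows of this length TTTGAA was in 17.9%, CCAAT in 37.4% and both in 6.95%. Among the genes tested, TTTGAA was in 12.2% of windows, in 24.97% for genes higher in dividing cells and in 10.9% for genes lower. In S-phase genes it was in 6 of 45 windows (13.3%), with CCAAT in 60%. Within the 100 bases from 50 before to 50 after the start, a window set after the matches had been seen, TTTGAA was in 76.9% of the 13, in 13.1% for higher genes, in 1.48% for lower genes and in 4.94% of all windows. The windows below are written 5′ to 3′ along the gene. Plk1 (chr7:122159185-122159484, plus strand), Cdc20 (chr4:118437294-118437593, minus), Kif23 (chr9:61946750-61947049, minus) and Hmmr (chr11:40733388-40733687, minus) are shown because they rose strongly and hold both motifs. Nuf2 (chr1:169531415-169531714, minus) also rose (4.34 ± 0.16) and holds neither, and Krt10 (chr11:99389315-99389614, minus), a keratin that was lower, holds both. They were chosen after their values were seen.
Plk1: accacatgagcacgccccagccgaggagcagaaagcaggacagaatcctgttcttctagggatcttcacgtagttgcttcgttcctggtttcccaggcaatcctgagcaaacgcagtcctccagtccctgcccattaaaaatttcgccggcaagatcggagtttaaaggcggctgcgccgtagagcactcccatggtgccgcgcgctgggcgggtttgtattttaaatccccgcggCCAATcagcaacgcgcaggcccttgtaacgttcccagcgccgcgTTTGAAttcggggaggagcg
Cdc20: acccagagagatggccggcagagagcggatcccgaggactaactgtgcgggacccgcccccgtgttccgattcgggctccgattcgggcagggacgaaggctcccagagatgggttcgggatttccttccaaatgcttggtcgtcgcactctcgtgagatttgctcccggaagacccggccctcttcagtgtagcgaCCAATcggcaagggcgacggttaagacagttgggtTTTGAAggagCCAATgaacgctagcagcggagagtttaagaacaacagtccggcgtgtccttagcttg
Kif23: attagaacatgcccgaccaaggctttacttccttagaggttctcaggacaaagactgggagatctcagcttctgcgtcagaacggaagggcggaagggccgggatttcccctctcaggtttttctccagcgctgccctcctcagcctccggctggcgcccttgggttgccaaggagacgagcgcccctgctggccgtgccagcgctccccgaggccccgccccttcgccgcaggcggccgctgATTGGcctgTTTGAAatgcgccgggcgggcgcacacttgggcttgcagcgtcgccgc
Hmmr: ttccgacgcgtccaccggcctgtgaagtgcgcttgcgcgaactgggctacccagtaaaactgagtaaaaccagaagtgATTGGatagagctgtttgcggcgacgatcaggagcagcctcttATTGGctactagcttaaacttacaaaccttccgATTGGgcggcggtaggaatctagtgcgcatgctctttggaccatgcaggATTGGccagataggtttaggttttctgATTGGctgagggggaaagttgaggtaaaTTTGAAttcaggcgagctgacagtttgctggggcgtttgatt
Nuf2: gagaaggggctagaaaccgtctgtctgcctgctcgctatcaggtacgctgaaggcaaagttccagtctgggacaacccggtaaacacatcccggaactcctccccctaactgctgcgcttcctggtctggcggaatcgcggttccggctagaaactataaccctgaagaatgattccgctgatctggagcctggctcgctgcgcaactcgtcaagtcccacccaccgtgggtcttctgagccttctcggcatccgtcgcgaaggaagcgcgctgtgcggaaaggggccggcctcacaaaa
Krt10: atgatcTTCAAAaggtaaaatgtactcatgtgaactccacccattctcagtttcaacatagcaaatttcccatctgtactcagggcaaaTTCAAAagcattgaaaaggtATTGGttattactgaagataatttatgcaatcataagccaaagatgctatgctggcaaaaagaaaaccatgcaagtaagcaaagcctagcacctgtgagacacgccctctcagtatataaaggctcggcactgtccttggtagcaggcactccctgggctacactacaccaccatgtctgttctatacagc
A match says that the letters are there, not that a factor was bound. In Plk1 TTTGAA lies 30 bases after the start with CCAAT 14 bases before it, and in Kif23 they lie 2 bases after and 7 before, whereas the TTTGAA matches of Krt10 lie more than 100 bases before it.

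Genes of DNA replication were also higher in dividing cells, by less. Of 52 S-phase genes, 47 were higher and none lower, with a median of 1.20. Pcna, the sliding clamp of DNA polymerase, stood at 700 and 283 CPM against 316 and 176. Rrm2, of the enzyme that makes deoxynucleotides, stood at 149 and 261 against 45.03 and 77.7, and Tyms, thymidylate synthase, at 247 and 221 against 53.1 and 79.8. Pclaf, a partner of PCNA, had the values 641 and 1089 against 49.5 and 202. For Mcm2 (log2 fold change 0.07 ± 0.15) no difference was detected. Pcna did not pass when either WT library was left out (log2 fold change 0.97 ± 0.08 with both, 0.63 without library 1 and 1.01 without library 2).

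Inhibitors and cyclins of G1 moved in both directions: 5 of 18 were higher and 6 lower. The inhibitors Cdkn2c and Cdkn2d rose, Cdkn2d from 4.19 and 13.3 CPM to 73.1 and 147. Ccnd2, cyclin D2, was lower, at 156 and 177 against 272 and 337 CPM, and so was Cdkn1a (p21), at 301 and 299 against 458 and 436. Ccnd1 was lower at 240 and 187 against 288 and 254, and DESeq2 did not call it. Without WT library 1 and without WT library 2 none of these 3 passed; Ccnd2 was then at log2 fold changes of -0.98 and -0.94, Cdkn1a at -0.60 and -0.74, and Ccnd1 at -0.49 and -0.40.

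Of the keratins of the basal layer, Krt15 was higher in dividing cells and Krt14 and Krt5 were modestly lower. Krt14 was at 13102 and 12740 CPM in dividing cells against 19912 and 18029 in other cells, and Krt5 at 18199 and 5042 against 23467 and 6197. Both were lower, with log2 fold changes of -0.61 ± 0.03 and -0.40 ± 0.03. Krt15, a keratin of basal cells, was higher at 1113 and 1507 against 561 and 832 (0.87 ± 0.05). The calls of these 3 keratins were lost when either WT library was left out, with log2 fold changes without library 1 and without library 2 of 0.81 and 0.85 for Krt15, -0.55 and -0.74 for Krt14, and -0.35 and -0.51 for Krt5. The transcription factor Trp63 and the hemidesmosome genes Col17a1, Itga6 and Itgb4 did not pass. Of 30 basal genes tested 2 were higher and 14 lower, with a median of -0.19.

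Differentiation genes were lower almost as a block. Of 33 suprabasal genes tested (of 37 in the files), 31 were lower and none higher, with a median of -1.41, and of 18 cornified envelope genes tested (of 29) 9 were lower and 1 higher, with a median of -0.86. Krt6b (chr15:101676023-101680287), a keratin of activated suprabasal cells, stood at 264 and 253 CPM against 1901 and 1706, the largest fall by the naming rule (-2.89 ± 0.06). Krt10 (chr11:99385254-99389364), the keratin of suprabasal cells, stood at 518 and 273 against 2367 and 2081. Krt16, with 16.9% of the 50-base words of its 3′ end shared with other genes, stood at 740 and 233 against 4977 and 1350. Sprr1a, a cornified envelope precursor, stood at 143 and 175 against 590 and 553, and Fabp5, an epidermal fatty acid carrier, at 599 and 818 against 2054 and 2542. For these 5 genes both values of dividing cells lay below both values of other cells. The desmosomal cadherin Dsg1a, the metallothionein Mt4 and the keratin Krt4 were also among the 10 largest falls. Summed over the list, suprabasal UMIs made up 16219 and 13319 CPM of dividing cells and 38833 and 29881 of other cells.

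Of the smaller groups, cholesterol synthesis was lower in 11 of 23 genes with none higher (median -0.52), with Fdps at 28.8 and 65.7 CPM against 48.4 and 141. Immediate early and dissociation genes were lower in 8 of 14 (median -0.40), among them Fos at 8.95 and 9.96 CPM against 30.1 and 17.5, and mitochondrially encoded RNAs in 6 of 10 (median -0.21). Neither Fdps nor Fos was called by DESeq2. Fdps was also lost without either WT library (-1.15 without library 1, -0.88 without library 2), and Fos without library 1 (-0.85). Ribosome biogenesis genes were lower in 9 of 36 and higher in 1, and respiratory chain genes were lower in 8 of 50 and higher in 4, with medians of -0.11 and -0.06 against -0.04 for all genes. Among cells of low suprabasal share, described next, ribosome biogenesis had 1 gene higher and 2 lower, and the respiratory chain 2 higher and 1 lower. The oestrogen receptor Esr1 did not pass (129 and 104 CPM against 104 and 73.5), while its target Pgr, the progesterone receptor, was lower at 116 and 57.8 against 166 and 111. DESeq2 did not call Pgr, and leaving out either WT library ended its call (-0.99 without library 1, -0.65 without library 2). None of 8 EGF receptor family genes passed, and 2 of 20 Wnt pathway genes were lower with none higher. Over all genes tested 9.43% were higher and 9.02% lower. The lower Wnt genes and the higher respiratory chain genes lie near these shares and are not read as results about their lists.

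The comparison was repeated among cells at or below the median of their library in the share of UMIs from suprabasal and cornified genes, which were 619 and 285 dividing cells and 870 and 708 other cells. Here 540 genes of 9126 were higher and 267 lower. The mitotic lists had median log2 fold changes of 3.0002 for kinases and cyclins, 2.59 for the kinetochore and 3.30 for the spindle, and 18 of the 18 mitotic genes outside the rule passed. Krt15 remained higher (0.38) and Krt14 lower (-0.38). The median of the S-phase list was 0.62, with 31 of 52 higher and 2, Mcm2 (-0.54) and Ung, lower. Of the 12 S-phase genes used below to define S-phase cells, 5 were higher and 1 lower here, against 11 higher and none lower among all cells. The median of the suprabasal list was -0.32, and that of the cornified list 0.18; since these genes set which cells entered, their difference is limited by the choice. Krt13 (0.89) was higher here, opposite to its fall in all cells (-1.61). Among cells of low suprabasal share Krt10 (0.05) and Cdkn1a (0.16) did not pass. The falls of Fdps (-0.63), Fos (-0.77) and the cholesterol list (1 of 20 lower) were not called here, while those of Ccnd2 (-0.99) and Pgr (-0.77) were.

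**Figure D3:**
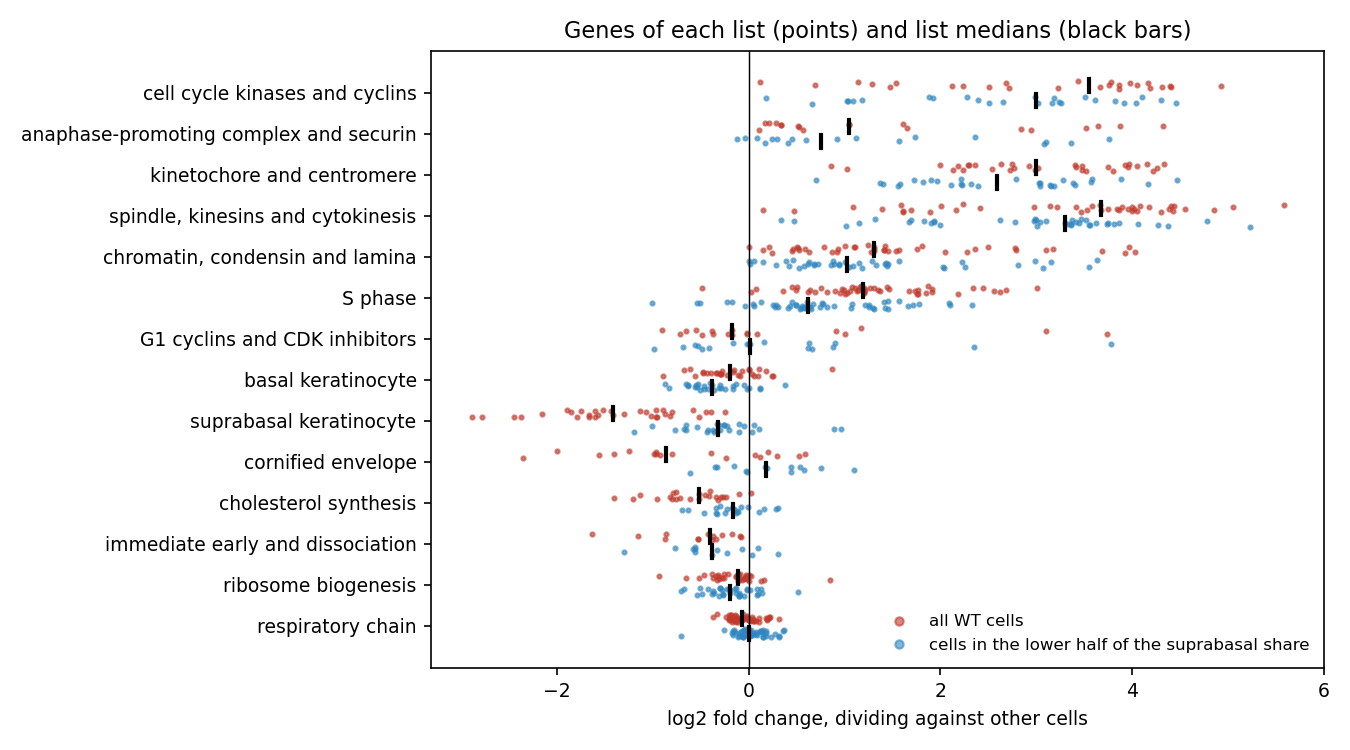
Log2 fold change of dividing against other cells (x axis) for the tested genes of 14 lists (points, y axis), with the list medians as black bars, among all WT cells (red) and among cells at or below the median suprabasal share (blue). The mitotic lists lie far to the right in both, while the suprabasal median moves from -1.41 to -0.32.

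The position of dividing cells along differentiation was then read from shares rather than genes. Within each WT library cells were ranked by the share of UMIs from 66 suprabasal and cornified genes and cut into 4 groups of equal size. So that depth would not set the share, the share expected after random thinning of every cell to 500 UMIs was computed. No draw was made: each cell entered with its exact probability of keeping at least 2 UMIs of the 10 rule genes. From the lowest to the highest group, the expected shares were 44.9%, 29.7%, 20.5% and 3.51% of cells in library 1, and 42.2%, 27.8%, 20.4% and 5.10% in library 2. The lowest and highest groups differed by 39.3 ± 3.09 percentage points (SD, n = 2), and the libraries gave the same order. No cell was left out in library 1 and 256 cells with fewer than 500 UMIs were left out in library 2. Unthinned, the rule took 49.1%, 34.1%, 23.0% and 4.56% of cells in library 1 and 33.1%, 24.3%, 17.5% and 4.23% in library 2. The summed level of 12 S-phase genes (Pcna, Mcm2 to Mcm7, Rrm1, Rrm2, Tyms, Dut and Hells) was lower in each next group, from 2792 to 538 CPM and from 2122 to 460 CPM. No test was made of these shares.

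**Figure D4:**
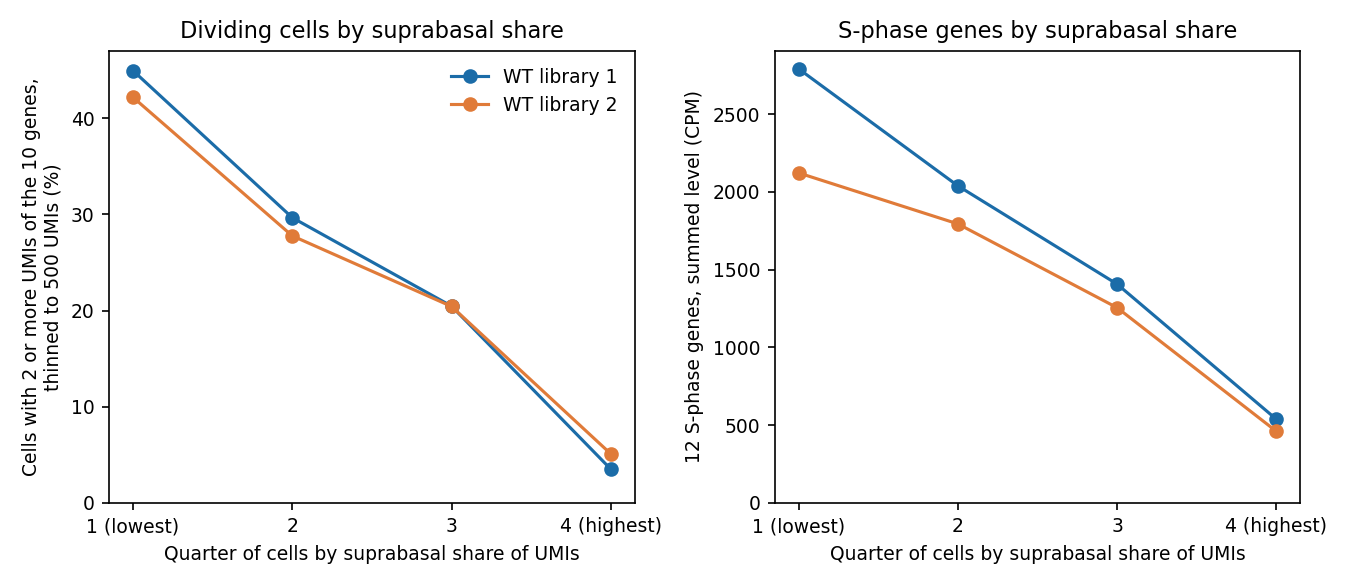
Left, expected percentage of cells with at least 2 UMIs of the 10 rule genes after thinning to 500 UMIs (y axis) in 4 groups of cells by suprabasal share (x axis) for WT libraries 1 and 2. Right, summed level in CPM of 12 S-phase genes in the same groups. The share goes from 44.9% and 42.2% of cells in the lowest group to 3.51% and 5.10% in the highest.

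Dividing cells were next set against cells in S phase, the 520 WT cells (391 and 129) with at least 4 UMIs of the 12 S-phase genes and under 4 of the rule genes. Against these cells, 338 of 8014 genes differed (4.22%), 245 higher in dividing cells (3.06%) and 93 lower (1.16%), leaving out the genes that chose either class; the same test gave no gene without the library block (177 at unadjusted p under 0.05), and DESeq2 called 110, 107 of them higher. By the choice of the classes, a gene transcribed together with the rule genes had to be higher here too. The counts and levels of mitotic genes therefore describe the choice. Of these lists, 41 of 43 late mitosis genes, 29 of 30 kinetochore genes, 38 of 42 spindle genes and 19 of 26 kinases and cyclins were higher, with none lower. Hmmr was at 544 and 392.3 CPM in dividing and 16.8 and 18.2 in S-phase cells. Plk1 had 426 UMIs in dividing cells and 1 in S-phase cells, a ratio of pooled levels of 180 (95% counting interval 32.1 to 7111). Of 40 S-phase genes outside the choice, 4 were higher in dividing cells (Clspn, Rad51ap1, Pclaf and Tk1) and 3 lower (Gins2, Cdc6 and Ung). Ung, a uracil-DNA glycosylase, stood at 15.4 and 7.96 CPM against 57.0 and 48.6.

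Dividing cells also differed from S-phase cells in genes outside the cycle. Krt15 was higher (1113 and 1507 CPM against 695 and 838), and Krt14 was lower (13102 and 12740 against 18934 and 15446). Suprabasal genes were lower in 11 of 29 and higher in none, with a median of -0.42, against -0.02 for all genes. Krt6b stood at 264 and 253 CPM against 978 and 340. Krt16 stood at 740 and 233 against 2689 and 304, lower within each library but with overlap between the libraries. Cyclin D2 was at 156 and 177 CPM against 326 and 340, a log2 fold change of -1.05 ± 0.14, and cyclin D1 at 240 and 187 against 383 and 249. Dlk2, a transmembrane protein related to the Notch ligands, stood at 20.4 and 29.9 against 54.8 and 97.2. Trp63, Myc, Cdkn1a and Esr1 did not pass. DESeq2 did not call Krt14, Krt6b, Krt16, Ccnd1, Dlk2 or Ung, and did call Krt15 and Ccnd2.

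The dividing cells themselves spread from cells still rich in replication genes to cells rich in late mitosis genes. By which of the lists of 44 late mitosis and 52 S-phase genes held more UMIs in a cell, 483 and 259 cells leaned late, 315 and 124 leaned to replication and 26 and 10 were tied. The 10 rule genes are in neither list, so the split depends on leaving them out. Both lists were detected together in 98.4% and 95.9% of dividing cells. Late-leaning cells made up 54.2%, 56.7%, 69.0% and 67.6% of the dividing cells of the 4 groups of suprabasal share in library 1, and 63.4%, 65.3%, 69.0% and 76.2% in library 2, with 34 and 21 cells in the highest groups.

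Outside the genes that made the split, 315 of 7207 genes differed (4.37%), 130 higher in late-leaning cells (1.8%) and 185 lower (2.57%). Gas2l3, a midbody protein of cytokinesis, stood at 75.4 and 74.2 CPM in late-leaning cells against 12.1 and 12.8 in replicating ones. Fzr1, which takes over from Cdc20 as activator of the anaphase-promoting complex, stood at 91.0 and 104 against 32.3 and 44.7. Replicating cells held more Dtl, which marks replication proteins for destruction (180 and 70.2 CPM against 20.5 and 20.8), Brca1, a DNA repair gene (121 and 76.6 against 25.4 and 26.7), and Slfn9 (481 and 210 against 105 and 50.5). In none of these 5 genes did the values of the groups overlap. DESeq2 called 18 genes, Dtl and Slfn9 among them and Gas2l3, Fzr1 and Brca1 not, and no gene passed without the library block (50 at unadjusted p under 0.05).

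Suprabasal genes separated these subsets too. Of 27 tested, 9 were higher in late-leaning cells and none lower (median 0.32, against 0.02 for all genes), and of 13 cornified envelope genes 4 were higher. Sprr1a rose from 57.9 and 44.7 CPM in replicating to 201 and 237 in late-leaning cells (log2 fold change 1.91 ± 0.21), Krt6a from 944 and 849 to 1537 and 1217 (0.65 ± 0.10), and Krt6b from 183 and 166 to 308 and 300. DESeq2 called Sprr1a and Krt6a and not Krt6b. Krt5, Krt14 and Krt15 did not pass. Of 33 ribosome biogenesis genes, 3 were lower in late-leaning cells (Ncl, Npm1 and Nolc1) and none higher, and of 12 transcription factors of the cycle 3 were lower (E2f3, E2f8 and Rb1). DESeq2 called none of these 6 and gave no adjusted p for Rb1.

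A few dividing cells carried transcripts of myeloid cells. At least 5 UMIs of 10 myeloid genes (such as Cd74 and H2-Ab1 of the MHC class II system) were found in 5 dividing cells of library 1 and 1 of library 2, out of 12 and 7 such cells in all. Those 5 cells held 98 of the 103 Cd74 UMIs of dividing cells in library 1. The same 5 cells also held 73 Krt5 and 96 Krt14 UMIs, together 18256 CPM, and the 7 other such cells of the library 13306 CPM, whereas the 1 dividing cell of library 2 held none. Doublets were not removed, and whether these are myeloid cells, doublets or keratinocytes with myeloid RNA was not tested. The 12 cells of library 1 with at least 5 myeloid UMIs had a median of 1060 UMIs, against 1597 for the library. Cd74 was called higher in dividing than in S-phase cells (51.2 and 35.8 CPM against 0 and 0) and in late-leaning than in replicating cells (80.3 and 53.4 against 1.35 and 0), and without these cells it did not pass the filter on low counts. Without all cells of at least 5 myeloid UMIs, a comparison added after seeing the data, 2001 genes passed against other cells, 355 against S-phase cells and 315 between late-leaning and replicating cells. The 6 fibroblast genes and the erythroid genes had no UMI in dividing cells of either WT library. T or NK genes had UMIs in 110 and 34 dividing cells, endothelium genes in 16 and 2, and smooth muscle genes in 7 and 4. The summed T or NK level was 71.6 and 75.7 CPM in dividing cells and 76.2 and 96.6 in other cells.

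After ovariectomy few cells met the rule: 9 of 1573 kept cells in OVX library 1 (0.572%) and 32 of 1907 in OVX library 2 (1.68%). Depth differed between libraries, with median UMIs of other cells of 1457 and 745 in WT and 432 and 734 in OVX, so cells were thinned to 500 UMIs, which left out 953 and 248 OVX cells and 0 and 256 WT cells. At least 2 UMIs of the rule genes were then expected, by the same probabilities, in 24.6% and 23.5% of WT cells and in 1.64% and 2.21% of OVX cells. The groups did not overlap, and the means were 24.1% ± 0.820 and 1.92% ± 0.402 (SD, n = 2 libraries each), a difference of 22.1 percentage points. With 2 libraries against 2 the exact two-sided permutation test over libraries cannot go below p = 0.333, which is the p it gave. Thinning to 1000 UMIs, which left out 559 and 1311 WT cells and 1500 and 1416 OVX cells, gave 35.2% against 4.36%. OVX library 1 then kept only 73 cells. The rule without thinning gave 23.7% ± 5.57 against 1.13% ± 0.782.

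**Figure D5:**
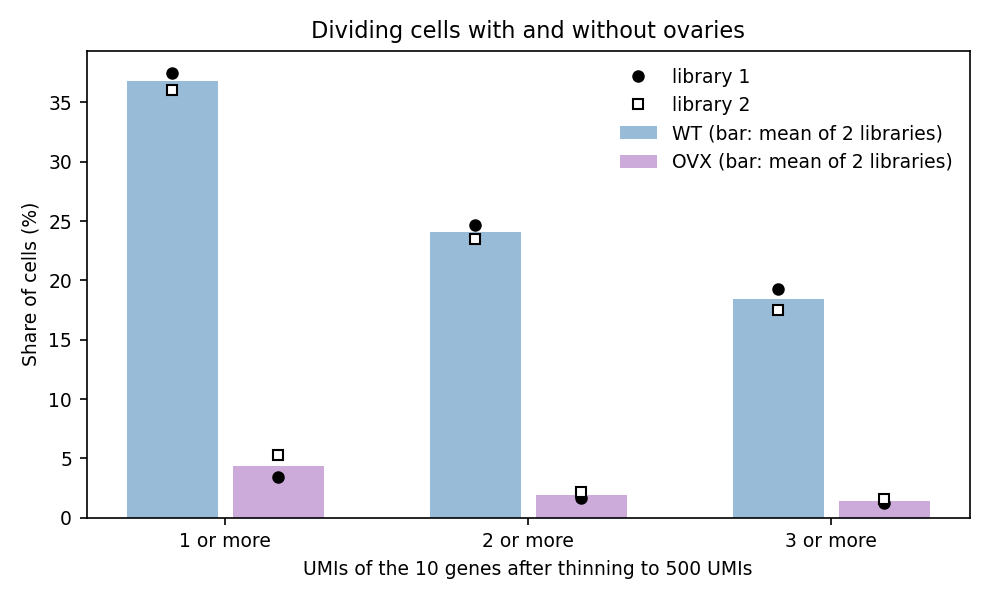
Expected percentage of cells (y axis) with at least 1, 2 or 3 UMIs of the 10 rule genes after thinning to 500 UMIs (x axis), as points for each library and bars for the mean of 2 libraries of WT and OVX mice. The WT libraries lie at 24.6% and 23.5% and the OVX libraries at 1.64% and 2.21% for at least 2 UMIs.

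The dividing cells of the 2 groups were then set against each other gene by gene, over libraries. Only 41 OVX cells entered, and 10 of 4793 genes passed (0.209%; 395 at unadjusted p under 0.05), 5 higher in WT and 5 higher in OVX. Higher in WT dividing cells were the keratin Krt6a (1312 and 1093 CPM against 118 and 0), the decoy interleukin-1 receptor Il1r2 (781 and 751 against 0 and 0), the stefin-like BC100530 (889 and 1340 against 0 and 0), the IGF-binding protein Igfbp2 (701.8 and 727 against 0 and 48.2) and Krtdap (1009 and 1856 against 237 and 72.3). Measured against a floor of 3 UMIs over the OVX cells, BC100530 was at least 16.3-fold and Il1r2 at least 12.9-fold higher in WT. BC100530 shares 41.5% of its 3′ end words with its paralogs, so its reads may come from them.

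Higher in OVX dividing cells were the simple-epithelium keratins Krt8 (355 and 289 CPM against 0.497 and 3.98) and Krt18 (473 and 169 against 5.47 and 3.98), the monooxygenase Fmo2 (355 and 265 against 4.97 and 1.99), Cd74 and Retnla. All 72 Retnla UMIs of OVX library 2 came from 1 cell, and its 31 Cd74 UMIs came from 2 cells, each with at least 5 myeloid UMIs. Without such cells 8 genes passed. For Krt14 (13102 and 12740 against 3195 and 2265 CPM) and Krt5 the test did not pass, although WT values lay above OVX values. The dividing cells of OVX library 1 held 8452 UMIs together, so its values rest on few molecules. Other cells of the groups differed in the same direction. In them the 12 luminal mucous genes, Krt8 and Krt18 among them, summed to 448 and 420 CPM in WT and 1661 and 1528 in OVX. The 30 basal genes summed to 58601 and 41158 against 12011 and 12048. These list differences are therefore not particular to dividing cells. DESeq2 called Krt6a, Il1r2, BC100530, Krtdap and Krt14, and gave no adjusted p for Krt8, Krt18 and Fmo2. Leaving out 1 library leaves a single library in its group and changed which genes passed. The genes tested were then 1220 and 1211 without WT library 1 or 2, and 8573 and 7744 without OVX library 1 or 2. The counts of calls from these fits are therefore not compared. Without OVX library 2, 7 of the 10 genes were tested and 1 had the other sign. With the replicate number as a block 7 genes passed, and Igfbp2, Krtdap and Cd74 did not.

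The cycle genes themselves gave no call between these groups. Both groups were chosen by the same cut on rule UMIs, so levels of genes transcribed with the rule genes were partly set by the choice. The cut was on raw UMIs, and the median dividing cell held 2078 and 1093 UMIs in WT and 871 and 1106 in OVX. Neither the lack of calls nor the single levels below are therefore read as a property of the cells. Of 18 mitotic genes outside the rule none passed, with a median log2 difference of 0.23 against 0.35 for all genes, and the same held for 25 kinases and cyclins, 28 kinetochore genes and 40 spindle genes. Plk1 was at 164 and 193 CPM in WT and at 118 and 120 in OVX dividing cells, the latter from 6 UMIs in all. Cdc20 was at 526 and 309 against 237 and 434, and Ccnb2 at 466 and 342 against 592 and 386. Of the 18 genes, 4 (Aurka, Cenpe, Hmmr and Cks2) had both OVX values above both WT values, 2 (Plk1 and Pbk) had both WT values above, and 12 overlapped. The same count was not made over all genes tested, so these numbers are not read as a result about the 18 genes. Cks2 shares 39.9% of its 3′ end words with other genes. Cenpe was at 800 and 335 CPM in WT and 2248 and 2096 in OVX (106 UMIs), and among the fits without 1 library it passed only without WT library 1 (log2 difference -2.51). Hmmr was at 544 and 392.3 against 1065 and 988, and Aurka at 65.7 and 151 against 237 and 217 (2 and 9 UMIs in OVX). The late mitosis list of 41 genes had a median of -0.41 and no gene past the test. At this depth no difference was called for these genes. The progesterone receptor Pgr had 262 UMIs in WT and none in OVX dividing cells, at least 1.74-fold higher in WT against the floor, and did not pass the test. The difference between dividing and other cells was also compared between WT and OVX in one model. There 86 of 10775 genes passed (0.798%), 63 with a difference higher in WT (0.585%) and 23 with one higher in OVX (0.213%). With RLE in place of TMM scaling these counts were 18 and 28, and no gene passed without WT library 2 (139 at unadjusted p under 0.05). Of 44 late mitosis genes 13 passed, all with the larger difference in OVX, among them Cenpa (dividing against other cells: 253 and 432 against 18.3 and 50.4 CPM in WT, and 1065 and 361 against 6.33 and 0 in OVX). The classes were cut on mitotic UMIs, so this difference also depends on how many other cells held 1 to 3 rule UMIs. Other cells with no rule UMI were 1363 of 2155 and 1148 of 1594 in WT, and 1529 of 1564 and 1779 of 1875 in OVX. The direction is therefore not read as a result about dividing cells alone.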

How the data were processed

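Drop-seq counts were analysed for 4 libraries of mouse vaginal epithelium, 2 WT and 2 OVX. The values are UMI counts per gene and cell as deposited by the authors, whole numbers without normalization; the submitters' processing notes name mm10 and Seurat 2, and for the aligner and annotation the entry is: not given in the sources used here. A cell was kept with 200 or more genes and no more than 20% mitochondrial UMIs, no doublets were removed, and 0 columns of other samples were present. Counts were summed per library and class of cells and tested in R 4.3.3 with edgeR 4.0.16 (TMM, filterByExpr, glmQLFit and glmQLFTest, Benjamini-Hochberg adjustment over all genes tested, threshold 0.05). DESeq2 1.42.0 was an alternative. The library was a block where classes of the same library were compared. The scripts were tested on simulated data. CPM values are UMIs scaled to a common total per class.

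The members and lists were chosen with earlier results of these data known, and an earlier analysis shaped the lists. Named genes were the rule genes, the markers, a fixed set of keratins and hormone and cycle genes, up to 4 genes per list by adjusted p, and the 15 largest rises and 10 largest falls (8 and 8 in the other comparisons) among genes past the threshold with the same direction in both libraries, or no overlap between WT and OVX, and at least 50 CPM in the higher class. Genes outside that rule are named only as exceptions or members of a counted group. Of 25071 gene symbols 94.1% matched GENCODE vM21 on GRCm38, which gave gene positions. Intervals and floors (3 counts) cover counting error only.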

Additional observations from a re-analysis of the deposited data

Results flagged for a closer look

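The difference between dividing and other cells was itself compared between WT and OVX mice, by edgeR's quasi-likelihood test of the difference over 8 sums. It differed for 86 of 10775 genes (0.798%), with 63 differences higher in WT and 23 higher in OVX. The median over all genes was 0.76 on the log2 scale, and the OVX side rests on 41 dividing cells.

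The genes with the largest positive differences had no UMI in OVX dividing cells, so that the fitted sizes depend on the prior count and are no bounds. These were Adh7 (10.89), Apex1 (10.79), Tnrc6a (10.64), Eif4a2 (10.47), Asph (10.38), Ube2e3 (10.32) and Svil (10.28). Serpinb11, a serine protease inhibitor, differed by 4.29, with 1 UMI in OVX dividing cells.

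Mitotic genes made up the largest negative differences: Aurka (-6.14), Bub1 (-6.07), Cdkn3 (-5.05), Cenpa (-3.98), Aspm (-3.97), Knl1 (-3.77), Ncapg (-3.61) and Ndc80 (-3.39). In OVX other cells these genes were close to absent: Aurka was at 0 and 0 CPM there, against 2.36 and 8.40 CPM in WT other cells. Cenpa was at 6.33 and 0 CPM in OVX other cells and at 18.3 and 50.4 in WT other cells. In dividing cells Cenpa stood at 1065 and 361 CPM in OVX and at 253 and 432 in WT, which overlap. Of 44 late mitosis genes 13 differed in this direction and none in the other. Because the classes were cut on mitotic UMIs, this direction is not read as a result about dividing cells alone. Bub1, Knl1 and Ncapg had no UMI in the dividing cells of OVX library 1, and their differences changed sign without OVX library 2.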

How the results depend on the processing

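For dividing against other cells, 1984 genes passed, 490 with DESeq2, 0 with no replicate block and 807 among cells of low suprabasal share; leaving out a WT library gave 182 to 304. Against S-phase cells DESeq2 called 110 and the fit with no replicate block 0, and for late-leaning against replicating cells 18 and 0. For dividing cells of WT against OVX, 10 genes passed, 5 with DESeq2, 21 without a filter on low counts, 16 with a rule sum of at least 3, and 1 to 49 without 1 library. The replicate block gave 7, but WT library 1 and OVX library 1 deviated with a correlation of -0.16 over 4803 genes, so the numbers are not shown to pair the libraries. The crossed pairing, added after seeing the data, gave 19. The difference of differences gave 86 genes, 46 with RLE scaling (18 higher in WT, against 63 with TMM), 22 with DESeq2 and 0 to 174 without 1 library; the count of 0, without WT library 2, had 139 genes at unadjusted p under 0.05.

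Signs turned among cells of low suprabasal share for BC100530 (0.17), Calm4 (0.96), Cdkn1a (0.16), Fabp5 (0.036), H2-Ab1 (-0.32), H2-Eb1 (-0.99), Krt10 (0.053), Krt13 (0.89), Mcm2 (-0.54), Mcm3 (-0.039), Spink5 (0.19), Sprr1a (0.58) and Wfdc2 (-0.16); and, over the fits without 1 WT library, for H2-Ab1 (-0.50 to 0.80) and Wnt4 (-0.51 to 0.21). Over the fits without 1 library, Cd74 between WT and OVX dividing cells ranged from -3.76 to 8.22, and in the difference of differences Bub1 ranged from -6.77 to 3.89, Cd74 from -1.72 to 12.68, H2-Eb1 from -3.21 to 9.98, Knl1 from -4.85 to 8.83 and Ncapg from -4.26 to 3.95, each highest without OVX library 2. The cause was not tested. The lowest and highest suprabasal groups differed by 56.0 points after thinning to 1000 UMIs, by 44.9 for at least 1 UMI, and by 37.1 to 41.4 in single libraries. A rule sum of at least 10 gave 738 dividing cells, and single libraries gave 393 to 824. The thinned WT and OVX shares differed by 21.6 to 22.7 points without 1 library.

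Limits are the 41 OVX dividing cells, 1 residual degree of freedom within WT, dependence on the library block, pools of 5 mice, duplicates of unstated kind and doublets that were not removed.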
